A study of Mus musculus with 12 samples.

Results

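PIM kinases are a small family of serine/threonine kinases made of Pim1, Pim2 and Pim3. They were measured in resting B (RB) cells with 5 probes, taken as every non-control probe whose gene name on the array was Pim1 (1 probe), Pim2 (3 probes) or Pim3 (1 probe). The array held 61307 such probes in all, under 50090 gene names, of which 31602 were tested. All 5 PIM kinase probes were well above background and unsaturated on all 12 arrays, and all were tested.

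The PIM kinases are active as soon as they are made, since they need no activating phosphorylation, so their amount is set largely by transcription, translation and turnover. In lymphocytes their transcription follows cytokine signals through JAK and STAT proteins and signals through NF-kB. They phosphorylate proteins of cell survival, cell cycle and translation, such as the pro-apoptotic protein BAD and the translation repressor 4E-BP1, and overlap there with the AKT kinases.

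RB cells were selected as CD43-negative cells from the spleens of BALB/c mice, which the labels give as female and 6 weeks old, and were cultured for 4 h before RNA was taken. The 6 conditions were unstimulated cells and cells given Pam2CSK4 (a lipopeptide ligand of TLR-2), anti-CD86, both of these (TLR2.CD86), anti-CD40 alone, or anti-CD40 together with Pam2CSK4. By the paper's methods, anti-CD86 carried biotin and was cross-linked with streptavidin. The methods also name an isotype-matched control antibody, which is not among the samples. An effect of the receptor bound and one of adding antibody thus cannot be told apart. Each condition had 2 samples. The paper speaks of 2 biological replicates for its microarray data, and nothing in the labels says that these were separate cultures. The p-values therefore measure only the spread between these samples. The number of arrays limits the precision. A value below is the log2 of the processed Cy3 signal relative to the 75th percentile of its array, and levels are compared only within a probe. In RNA from a cell population, fewer cells of a kind and less RNA per cell cannot be told apart.

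The arrays lay on 2 slides. The unstimulated arrays and the pair given anti-CD40 with Pam2CSK4 were on slide 1, and the remaining conditions were split, with replicate 1 on slide 1 and replicate 2 on slide 2. For the 5 probes, the slide 2 array was lower than its slide 1 partner in all 20 pairs, by 0.02 to 0.48 log2 units. With the slide as a term, slide 2 was lower by a log2 difference of -0.33 for Pim1, -0.33 for the brightest Pim2 probe and -0.34 for Pim3, beside a median of -0.13 over all tested probes. Results are therefore given without a slide term and, where it changed a call, with the slide as a block. All 8 markers of B cells were well above background on all arrays. So were all 5 T cell and all 6 myeloid markers, with S100a8, a gene of neutrophils, at a mean log2 signal of 6.57 and S100a9 saturated on all 12 arrays. The summed linear signal of the 5 unsaturated myeloid markers ran from 83.5 with anti-CD40 to 132 in unstimulated cells. Most of this sum was S100a8, at a log2 signal of 6.32 and 6.99 in these conditions. Lyz2 was at 0.25 with anti-CD40, 0.58 in unstimulated cells and 0.93 with TLR2.CD86. The sum of the 5 T cell markers ran from 17.6 with TLR2.CD86 to 26.1 in unstimulated cells. All 3 plasma cell markers were well above background on all arrays, with Igj saturated on all 12. Their unsaturated sum ran from 2.02 with anti-CD40 to 3.80 with anti-CD86, and was 3.63 in unstimulated cells. Sdc1 was at 0.46 with anti-CD40 and 1.47 in unstimulated cells, and Prdm1 at -0.63 and -0.22. Of 3 markers each, 2 of NK cells and 2 of red cells were well above background on all arrays, with Hbb-b1 at a mean of 5.90. The part of these other cells in the results below was not tested.

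The probes are shown because the 3 Pim2 probes did not give the same size of change. The Pim1 probe (accession NM_008842, chromosome 17) and the first 30 bases of the Pim3 probe (NM_145478, chromosome 15) are followed by 30 bases of the 2 brighter Pim2 probes (NM_138606, chromosome X), called a and b in order of brightness. Capitals mark the base after the longest run that Pim2 probes a and b share, which is 32 bases long.
Pim1: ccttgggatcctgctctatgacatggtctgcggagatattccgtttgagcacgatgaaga
Pim3: ctccgcacgcaacctaagcgtgccaccacg
Pim2 a: aagtgctcttattccggtgagaagaacctT
Pim2 b: aagtgctcttattccggtgagaagaacctC
Probes a and b therefore read nearly the same stretch and are not independent of each other. The dimmest probe, c, shares no run longer than 5 bases with either. The files give all 5 probes as unmapped, so no position is stated for them.

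The mean signal of all 3 genes was above that of unstimulated cells in every stimulated condition. For each of the 5 probes, all 10 stimulated arrays lay above both unstimulated arrays, a pattern that 5.76% of all tested probes showed. The smallest gap between the lowest stimulated and the highest unstimulated array was 0.45 for Pim1, 0.45 for Pim2 probe a and 0.39 for Pim3. Over the 6 conditions, limma's moderated F test called all 5 probes, with Benjamini-Hochberg adjusted p of 0.00136 for Pim1, 0.0069 for Pim2 probe a and 0.0322 for Pim3, where it called 20.4% of all probes. With the methods' one way test Pim3 did not pass (adjusted p = 0.064).

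**Figure D1:**
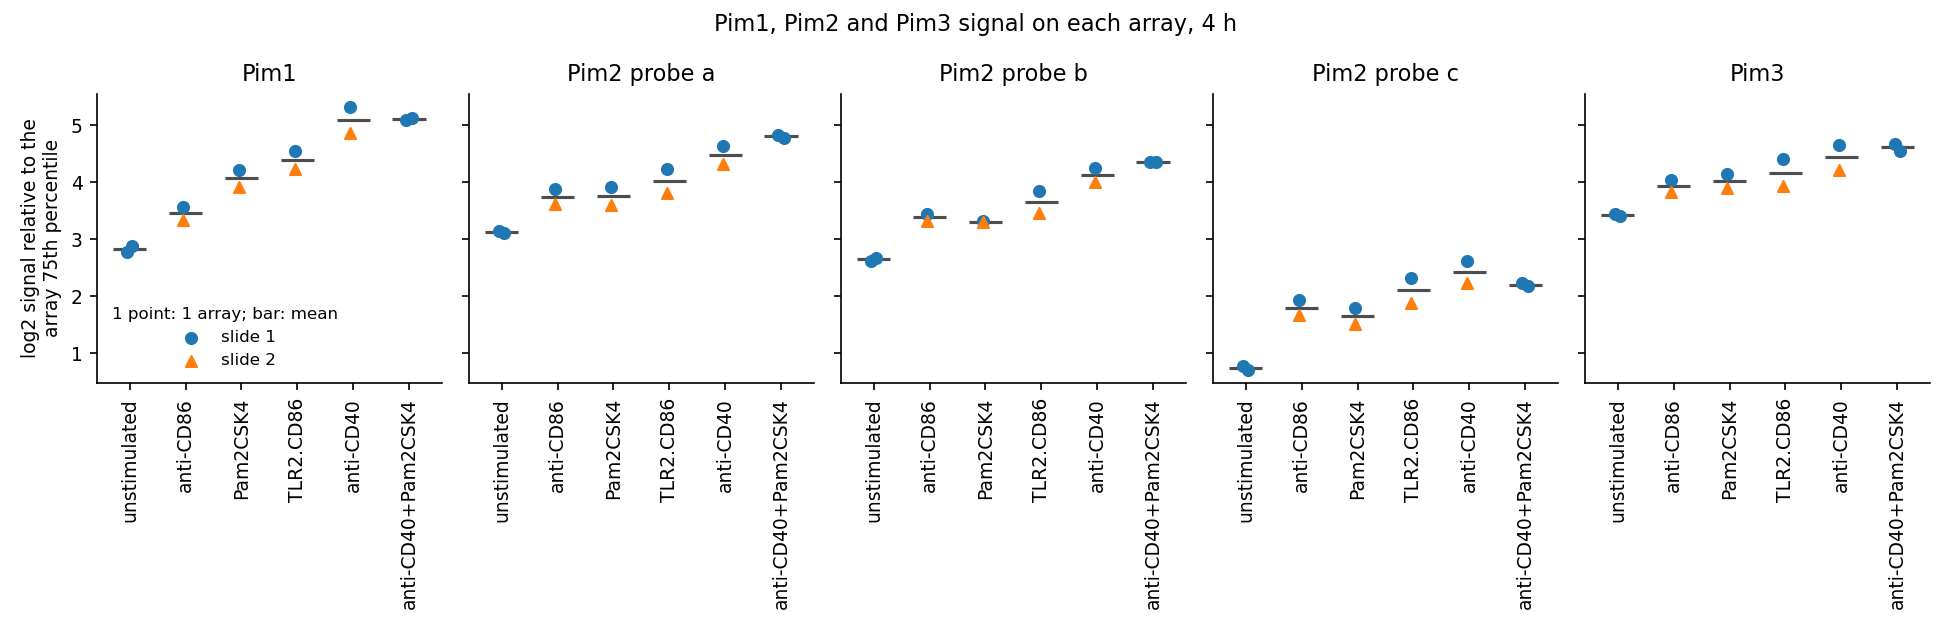
Log2 signal of each PIM kinase probe relative to the 75th percentile of its array (vertical axis) in the 6 conditions (horizontal axis). Each point is 1 array, circles for slide 1 and triangles for slide 2, and each bar is the mean of 2 arrays. All 10 stimulated arrays sit above both unstimulated arrays in every panel, and each triangle sits below its circle.

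Pim1, the founding member of the family and a target of STAT and NF-kB signals, showed the widest range. Its log2 signal was 2.77 and 2.88 on the unstimulated arrays. It was 3.57 and 3.34 with anti-CD86, 4.22 and 3.92 with Pam2CSK4, and 4.55 and 4.23 with TLR2.CD86. With anti-CD40 it was 5.33 and 4.86, and with anti-CD40 and Pam2CSK4 5.10 and 5.13. The conditions therefore fell in the order unstimulated, anti-CD86, Pam2CSK4, TLR2.CD86, anti-CD40, anti-CD40 with Pam2CSK4. Neighbours differed beyond their spread except Pam2CSK4 and TLR2.CD86 (0.32, 95% interval -0.13 to 0.77) and the last pair (0.02, -0.43 to 0.47), by intervals that were not adjusted for the number of neighbours.

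Against unstimulated cells, Pim1 rose 4.81-fold with anti-CD40 (log2 fold change 2.27 ± 0.20, SE, n = 2 arrays per condition, limma adjusted p = 0.00107) and 4.89-fold with anti-CD40 and Pam2CSK4 (2.29 ± 0.20, adjusted p = 0.000371). It rose 2.95-fold with TLR2.CD86 (1.56 ± 0.20, adjusted p = 0.00954). This TLR2.CD86 call was lost without unstimulated replicate 1 (limma adjusted p = 0.0825) or replicate 2 (0.0876). The change did not pass with Pam2CSK4 (1.24 ± 0.20, limma adjusted p = 0.0701) or anti-CD86 (0.63 ± 0.20, adjusted p = 0.115). Both passed once the slide was a block, at 1.41 (limma adjusted p = 0.00184) and 0.79 (0.0021).

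Pim2, a kinase of lymphoid cells that is known for promoting survival, rose with anti-CD40 and with both pairs of signals. For probe a the log2 signal was 3.15 and 3.12 on the unstimulated arrays. It was 3.89 and 3.61 with anti-CD86, 3.92 and 3.61 with Pam2CSK4, and 4.23 and 3.81 with TLR2.CD86. With anti-CD40 it was 4.63 and 4.31, and with anti-CD40 and Pam2CSK4 4.83 and 4.78. The order was unstimulated, anti-CD86, Pam2CSK4, TLR2.CD86, anti-CD40, anti-CD40 with Pam2CSK4. Of the neighbours, anti-CD86 and Pam2CSK4 (0.01, 95% interval -0.43 to 0.46), Pam2CSK4 and TLR2.CD86 (0.26, -0.18 to 0.70) and the last pair (0.33, -0.11 to 0.78) did not differ beyond their spread.

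Pim2 probe a rose 1.85-fold with TLR2.CD86 (log2 fold change 0.89 ± 0.19, SE, limma adjusted p = 0.0293), 2.53-fold with anti-CD40 (1.34 ± 0.19, adjusted p = 0.00579) and 3.19-fold with anti-CD40 and Pam2CSK4 (1.67 ± 0.19, adjusted p = 0.00129). The TLR2.CD86 call was lost without unstimulated replicate 1 (limma adjusted p = 0.154) or 2 (0.167) and without TLR2.CD86 replicate 1 (0.0867) or 2 (0.0641). The anti-CD40 call was lost without unstimulated replicate 1 (limma adjusted p = 0.0513) or 2 (0.055). The change did not pass with Pam2CSK4 (0.63 ± 0.19, limma adjusted p = 0.21) or anti-CD86 (0.62 ± 0.19, adjusted p = 0.114), and did with the slide as a block, at 0.80 (limma adjusted p = 0.00287) and 0.78 (0.00177).

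The other Pim2 probes gave the same direction at other sizes. Probe b, which overlaps probe a, rose by 1.01 on the log2 scale with TLR2.CD86 (limma adjusted p = 0.0123) and by 1.48 with anti-CD40 (0.00172). Probe c started from a log2 signal of 0.77 and 0.71 and rose by 1.36 with TLR2.CD86 (limma adjusted p = 0.0119) and by 1.69 with anti-CD40 (0.00287). It also passed with anti-CD86 (1.06, limma adjusted p = 0.0436). Probe c with Pam2CSK4 (0.91, limma adjusted p = 0.126) and probe b with Pam2CSK4 (0.65, 0.136) or anti-CD86 (0.74, 0.0512) did not pass. Under the slide block probe b was at 0.75 with Pam2CSK4 and 0.83 with anti-CD86, and probe c at 1.08 and 1.24. In probes b and c, unlike probe a, Pam2CSK4 (means of 3.31 and 1.65) lay below anti-CD86 (3.39 and 1.80), by less than the spread. The order of probe c differed at the top too, where anti-CD40 with Pam2CSK4 (2.23 and 2.17) lay below anti-CD40 alone (2.62 and 2.23), a difference that did not pass (-0.22, limma adjusted p = 0.567) and did under the slide block (-0.40, limma adjusted p = 0.0136). A probe named LOC100045117, which the array describes as similar to Pim2 and which is no member, had a log2 signal of 2.36 on one Pam2CSK4 array and 0.51 on the other, and did not pass in that comparison (limma adjusted p = 0.178).

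Pim3, the family member that is broadly expressed outside blood cells, showed the narrowest range. Its log2 signal was 3.45 and 3.41 on the unstimulated arrays. It was 4.03 and 3.84 with anti-CD86, 4.15 and 3.91 with Pam2CSK4, and 4.41 and 3.93 with TLR2.CD86. With anti-CD40 it was 4.66 and 4.22, and with anti-CD40 and Pam2CSK4 4.67 and 4.56. The order was that of Pim1, and only the step from unstimulated cells to anti-CD86 (0.51, 95% interval 0.04 to 0.97) had an interval above 0 among neighbours.

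Pim3 rose 2.01-fold with anti-CD40 (log2 fold change 1.01 ± 0.20, SE, limma adjusted p = 0.0172) and 2.27-fold with anti-CD40 and Pam2CSK4 (1.18 ± 0.20, adjusted p = 0.00651). The anti-CD40 call was lost without unstimulated replicate 1 (limma adjusted p = 0.0981) or 2 (0.11). The call for both signals was lost without unstimulated replicate 2 (limma adjusted p = 0.0533) or without replicate 1 of anti-CD40 with Pam2CSK4 (0.0514). The change did not pass with TLR2.CD86 (0.74 ± 0.20, limma adjusted p = 0.0549), Pam2CSK4 (0.60 ± 0.20, adjusted p = 0.242) or anti-CD86 (0.51 ± 0.20, adjusted p = 0.188). Under the slide block these were 0.91 (limma adjusted p = 0.0013), 0.77 (0.00952) and 0.68 (0.0043).

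**Figure D2:**
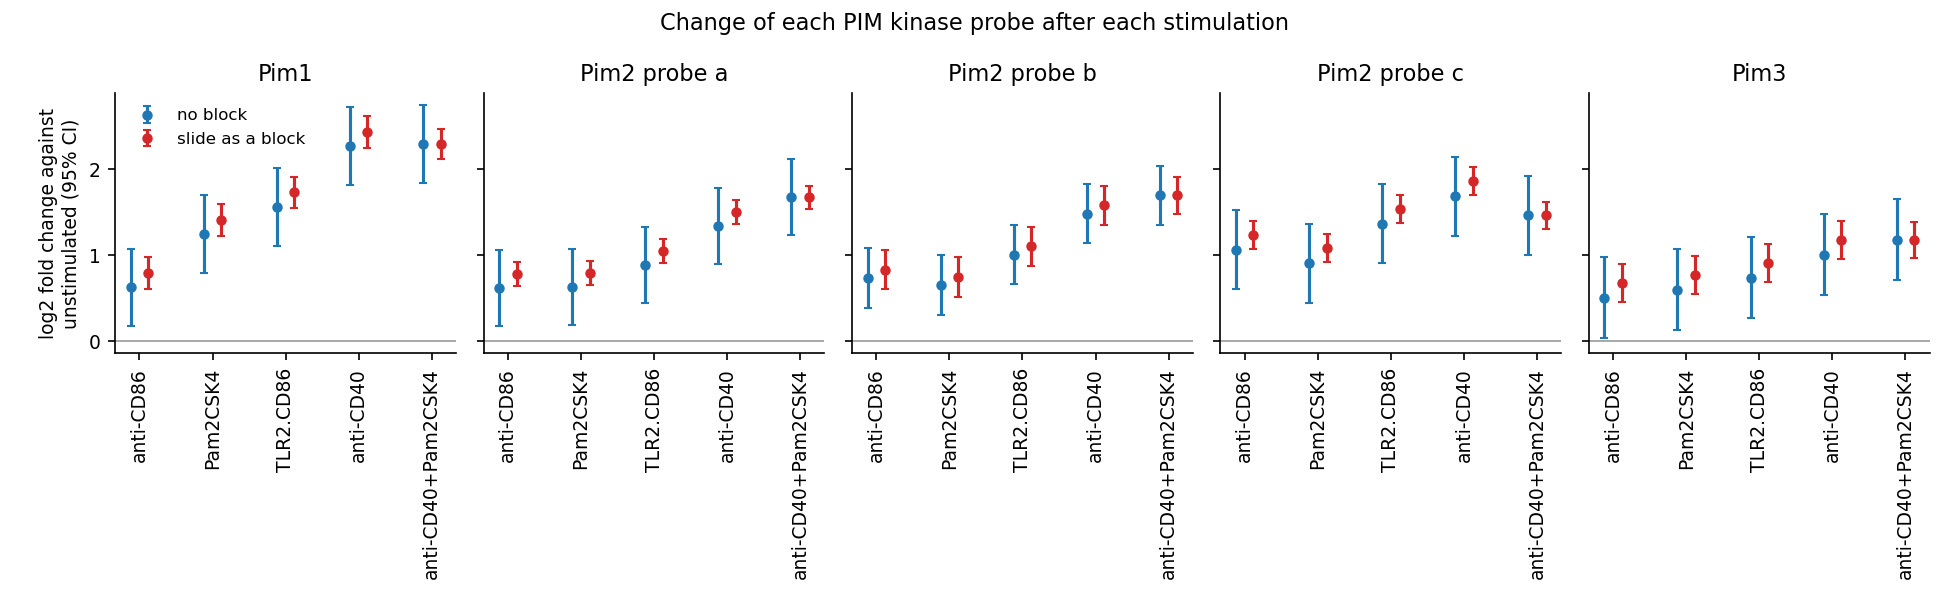
Log2 fold change of each PIM kinase probe against unstimulated cells (vertical axis) for the 5 stimulations (horizontal axis), with 95% confidence intervals that are not adjusted for the number of comparisons. Blue points have no block and red points have the slide as a block. All intervals lie above 0, and Pim1 with anti-CD40 is at 2.27.

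Counted over the 3 genes by their brightest probe, none passed the test with Pam2CSK4 or anti-CD86, where 0.101% and 0.978% of all tested probes were called higher. Pim1 and Pim2 rose with TLR2.CD86, where 3.41% were called higher. All 3 rose with anti-CD40 and with anti-CD40 and Pam2CSK4, where 6.16% and 8.54% were called higher. When the slide was a block, all 3 genes rose in all 5 comparisons, and the shares of all probes called higher were 4.7% for Pam2CSK4, 13% for anti-CD86, 14.5% for TLR2.CD86, 15.7% for anti-CD40 and 23.8% for anti-CD40 with Pam2CSK4. The 5 comparisons share the unstimulated arrays.

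The design also asks what a second signal adds to a first. TLR2.CD86 was above Pam2CSK4 alone by 0.32 for Pim1 (95% interval -0.13 to 0.77), 0.26 for Pim2 probe a (-0.18 to 0.70) and 0.14 for Pim3 (-0.33 to 0.61), and none passed (limma adjusted p of 0.673, 0.767 and 0.944), where 0.0158% of all probes were called higher. Within slide 1 these differences were 0.33, 0.31 and 0.26, and within slide 2 they were 0.31, 0.20 and 0.02. Pim1 (limma adjusted p = 0.0402) and Pim2 (0.0362) passed under the slide block, where 5.71% of all probes were called higher. Leaving out 1 array at a time moved the difference from 0.15 to 0.48 for Pim1, from 0.046 to 0.47 for Pim2 and from -0.10 to 0.38 for Pim3.

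TLR2.CD86 was above anti-CD86 alone by 0.94 for Pim1 (95% interval 0.48 to 1.39, limma adjusted p = 0.187), 0.27 for Pim2 probe a (-0.17 to 0.71, adjusted p = 0.775) and 0.23 for Pim3 (-0.24 to 0.70, adjusted p = 0.842), where 0.171% of all probes were called higher. For Pim1 the difference was 0.99 within slide 1 and 0.89 within slide 2, so that it was of like size on both. Under the slide block it passed for Pim1 (limma adjusted p = 0.00272) and Pim2 (0.0393), where 3.82% of all probes were called higher.

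Anti-CD40 with Pam2CSK4 was above Pam2CSK4 alone by 1.05 for Pim1 (limma adjusted p = 0.0152) and 1.04 for Pim2 probe a (0.0142), and 6.73% of all probes were called higher. Both calls were lost without Pam2CSK4 replicate 2, at limma adjusted p of 0.104 for Pim1 and 0.0972 for Pim2, without replicate 1 of anti-CD40 with Pam2CSK4 (0.0923 and 0.0962) and without its replicate 2 (0.102 and 0.0872). Pim2 probe c (0.55, limma adjusted p = 0.132) and Pim3 (0.58, adjusted p = 0.123) did not pass. Pim3 passed too under the slide block (0.41, limma adjusted p = 0.0171), where 17.3% of all probes were called higher. For Pim2 probe c the block gave changes against unstimulated cells of 1.08 with Pam2CSK4 and 1.46 with both signals.

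Pam2CSK4 added to anti-CD40 gave no call for the brightest probe of any of the 3 genes. The differences from anti-CD40 alone were 0.02 for Pim1 (95% interval -0.43 to 0.47), 0.33 for Pim2 probe a (-0.11 to 0.78) and 0.17 for Pim3 (-0.30 to 0.64), where 1.31% of all probes were called higher. Under the slide block the values were -0.14, 0.17 and 0.00, again with no call, where 8.83% were called higher, while Pim2 probe c, as given above, passed in the other direction (-0.40). For Pim1 the sign thus depended on the slide term, and for Pim2 on the probe.

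The interaction is the log2 effect of both signals minus the sum of the single effects. For Pam2CSK4 with anti-CD86, the single effects of Pim1 summed to 1.87 and the effect of both was 1.56, a difference of -0.31. The interaction was -0.36 for Pim2 probe a and -0.37 for Pim3, and none of the 3 passed (limma adjusted p = 0.969 for each), where 0.0127% of all probes were called lower. Under the slide block it was -0.47, -0.53 and -0.54 and did not pass (limma adjusted p of 0.124, 0.078 and 0.139), where 0.104% were called lower. Pim2 probe c, at -0.61 without the block (limma adjusted p = 0.969), did pass with it (-0.78, adjusted p = 0.0458).

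For Pam2CSK4 with anti-CD40, the single effects of Pim1 summed to 3.51 and the effect of both was 2.29. The interaction was -1.22 for Pim1 (95% interval -1.86 to -0.58, limma adjusted p = 0.0959), -0.30 for Pim2 probe a (adjusted p = 0.489) and -0.43 for Pim3 (adjusted p = 0.374), where 0.633% of all probes were called lower. Pim2 probe c was at -1.13 (limma adjusted p = 0.115), farther from 0 than probe a. All 3 passed under the slide block, at -1.55 (limma adjusted p = 0.00141), -0.63 (0.0127) and -0.77 (0.0252), where 3.5% of all probes were called lower. Under median normalization Pim2 and Pim3 turned to 0.36 and 0.23, where the median over all tested probes was itself at 0.81.

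**Figure D3:**
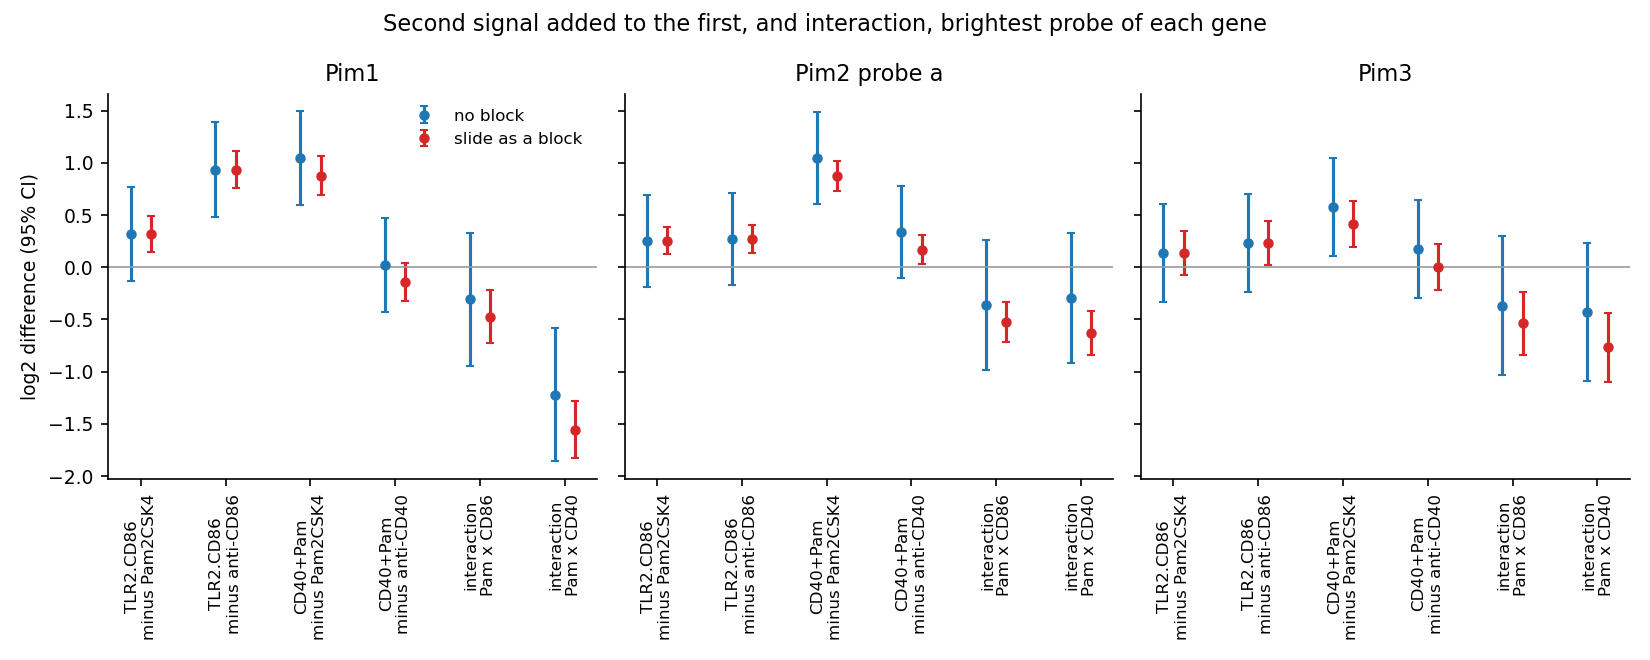
Log2 difference (vertical axis, 95% confidence intervals not adjusted for the number of comparisons) made by a second signal, and the interaction of both signals, for the brightest probe of each gene. Blue points have no block and red points have the slide as a block. The Pim1 interaction of Pam2CSK4 with anti-CD40 lies at -1.22 without the block and -1.55 with it.

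The genes whose signal was most like that of a PIM kinase over the 12 arrays were sought among 10433 genes, and the arrays share conditions and slides, so that the correlations are a description. For Pim1 they were Icam1, an adhesion molecule (Pearson r = 0.991), Tlr1, a partner of TLR-2 (0.976), Il21r, a cytokine receptor (0.976), Lrrn3 (0.973) and Nup62, a nuclear pore protein (0.970). For Pim2 probe a they were Nup62 (0.994), Afmid (0.984), Ncoa5 (0.980), Cct3, a chaperonin subunit (0.979), and Nol9 (0.979). For Pim3 they were Nol9 (0.987), Nup62 (0.976), Ncoa5 (0.976), Rest (0.964) and Cct3 (0.964). Over the 8 arrays of slide 1 the first-ranked genes had r of 0.994, 0.995 and 0.988. Among the members, r was 0.955 between Pim1 and Pim2 probe a, 0.951 between Pim1 and Pim3, and 0.980 between Pim2 probe a and Pim3. The median r over all 10433 genes was -0.19 with Pim1, -0.13 with Pim2 probe a and -0.12 with Pim3.

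The promoters are shown because the 3 genes moved together. The 250 bases before the start site, from RefSeq (GRCm38.p6), are given for Pim1 (chr17:29490535-29490784, plus strand, the first of 2 start sites), Pim2 (chrX:7878056-7878305, plus strand) and Pim3 (chr15:88861944-88862193, plus strand). Capitals mark matches, on either strand, to the kappaB motif, to the GAS element bound by STAT proteins (TTCNNNGAA), to the octamer (ATGCAAAT), to the AP-1 element (TGACTCA or its reverse complement spelling with G in the middle), to the CCAAT box, to the GC box (GGGCGG) and to the TATA box (TATAAA).
Pim1: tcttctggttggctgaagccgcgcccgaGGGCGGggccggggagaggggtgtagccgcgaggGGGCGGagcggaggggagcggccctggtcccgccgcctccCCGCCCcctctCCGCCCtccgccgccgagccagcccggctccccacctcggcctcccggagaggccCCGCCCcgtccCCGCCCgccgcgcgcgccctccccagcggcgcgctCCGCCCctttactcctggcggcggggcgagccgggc
Pim2: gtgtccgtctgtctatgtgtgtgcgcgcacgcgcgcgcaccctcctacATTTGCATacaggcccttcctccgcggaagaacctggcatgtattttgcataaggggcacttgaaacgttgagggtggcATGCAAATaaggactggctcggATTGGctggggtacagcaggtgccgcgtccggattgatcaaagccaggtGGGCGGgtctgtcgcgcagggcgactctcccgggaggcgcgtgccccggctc
Pim3: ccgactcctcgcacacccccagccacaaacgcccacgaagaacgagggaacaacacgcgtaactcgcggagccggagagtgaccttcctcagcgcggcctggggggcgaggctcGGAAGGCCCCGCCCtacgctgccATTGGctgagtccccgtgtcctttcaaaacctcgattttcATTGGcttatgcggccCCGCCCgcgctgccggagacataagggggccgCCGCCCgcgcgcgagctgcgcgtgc

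The GC box was in all 3 windows, with 7 matches in Pim1, 1 in Pim2 and 3 in Pim3, and in 32.7% of all 32851 promoter windows of this length. These 3 windows were rich in G and C, at 82.4% for Pim1, 62% for Pim2 and 68% for Pim3, beside a median of 52.4% over all windows. The octamer, an element of B cell promoters, had 2 matches in Pim2 and was in 1.6% of all windows. CCAAT had 1 match in Pim2 and 2 in Pim3, and was in 33.8% of all windows. The kappaB motif had 1 match, in Pim3, which overlaps a GC box, and was in 7.25% of all windows. The GAS, AP-1 and TATA box letters, in 7.02%, 4.46% and 12.4% of all windows, were in none of the 3, and none of the motifs was in the window of the second Pim1 start site. A match is a description of letters and not a site of binding.

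Around the PIM kinases, 17 genes that induce them (JAK kinases, STAT and NF-kB proteins and others) all had a tested probe. None was called with Pam2CSK4 or anti-CD86, 2 were higher with TLR2.CD86, 6 were higher and 1 lower with anti-CD40, and 6 were higher with anti-CD40 and Pam2CSK4. The shares of all probes called higher were 0.101% with Pam2CSK4, 0.978% with anti-CD86, 3.41% with TLR2.CD86, 6.16% with anti-CD40 and 8.54% with anti-CD40 and Pam2CSK4. Those called lower were, in the same order, 0.0443%, 1.19%, 7.38%, 10.7% and 9.7%. Under the slide block, 5, 5, 7, 9 and 11 inducers were called higher and 1, 2, 2, 3 and 2 lower in these comparisons. There, the shares of all probes called higher were 4.7%, 13%, 14.5%, 15.7% and 23.8%. The shares called lower were 6.37%, 15.5%, 20.6%, 21.6% and 23.7%. The median log2 fold change of the inducers was 0.26 with anti-CD40 and 0.42 with anti-CD40 and Pam2CSK4, beside -0.02 and 0.01 over all tested probes. Stat4 passed in 3 of the 5 comparisons, at 0.84 with TLR2.CD86, 0.82 with anti-CD40 and 1.02 with anti-CD40 and Pam2CSK4. Nfkb1, Nfkb2 and Stat5a passed with anti-CD40 (0.99, 0.81 and 0.99) and with anti-CD40 and Pam2CSK4 (1.34, 1.19 and 1.15). Under the slide block all 3 also passed with Pam2CSK4 (0.47, 0.29 and 0.37) and with TLR2.CD86 (0.57, 0.48 and 0.37). With anti-CD86 the block added Nfkb1 (0.39) and Stat5a (0.30) but not Nfkb2 (0.12). Stat4 gained no call.

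Of 28 genes whose proteins the PIM kinases phosphorylate or act with, 26 were tested. None was called with Pam2CSK4 or anti-CD86 and 3 were lower with TLR2.CD86. With anti-CD40, 1 was higher and 7 were lower, and with anti-CD40 and Pam2CSK4, 5 were higher and 6 lower. In the same order of comparisons, 0.101%, 0.978%, 3.41%, 6.16% and 8.54% of all probes were called higher. The shares called lower were 0.0443%, 1.19%, 7.38%, 10.7% and 9.7%. The median was -0.31 with anti-CD40 and -0.21 with anti-CD40 and Pam2CSK4, beside -0.02 and 0.01 over all tested probes. Myc, a transcription factor of growth, rose by 1.60 with anti-CD40 and by 2.29 with anti-CD40 and Pam2CSK4. Foxo1, a transcription factor of resting lymphocytes, was at -0.92 and -0.61 in these comparisons, and the cytokine signal inhibitors Socs1 (-0.98 and -0.89) and Socs3 (-0.67 and -0.79) were lower too. Under the slide block Myc (0.98), Foxo1 (-0.27) and Socs1 (-0.45) also passed with Pam2CSK4. Myc (0.62) and Socs1 (-0.44) then passed with TLR2.CD86 as well, and none of these 4 genes passed with anti-CD86.

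The third list held 12 genes of the parallel AKT route with chaperones and a phosphatase, all tested. None was called with Pam2CSK4, and 1 was higher in each other comparison. This was Mtor, the kinase at the centre of growth control, at 0.75 with anti-CD86, 0.72 with TLR2.CD86, 0.90 with anti-CD40 and 1.03 with anti-CD40 and Pam2CSK4. Sgk3, a kinase related to AKT, was lower with anti-CD40 (-0.75) and with anti-CD40 and Pam2CSK4 (-1.09). Under the slide block Sgk3 also passed with TLR2.CD86 (-0.43). Of all probes, 0.978% were called higher with anti-CD86, 3.41% with TLR2.CD86, 6.16% with anti-CD40 and 8.54% with anti-CD40 and Pam2CSK4. In the last 2 of these comparisons 10.7% and 9.7% were called lower. There, 1 gene of 12 in a direction was near the share of all probes. Pdpk1, which activates AKT, was not called, and was at -0.27 with anti-CD40.

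**Figure D4:**
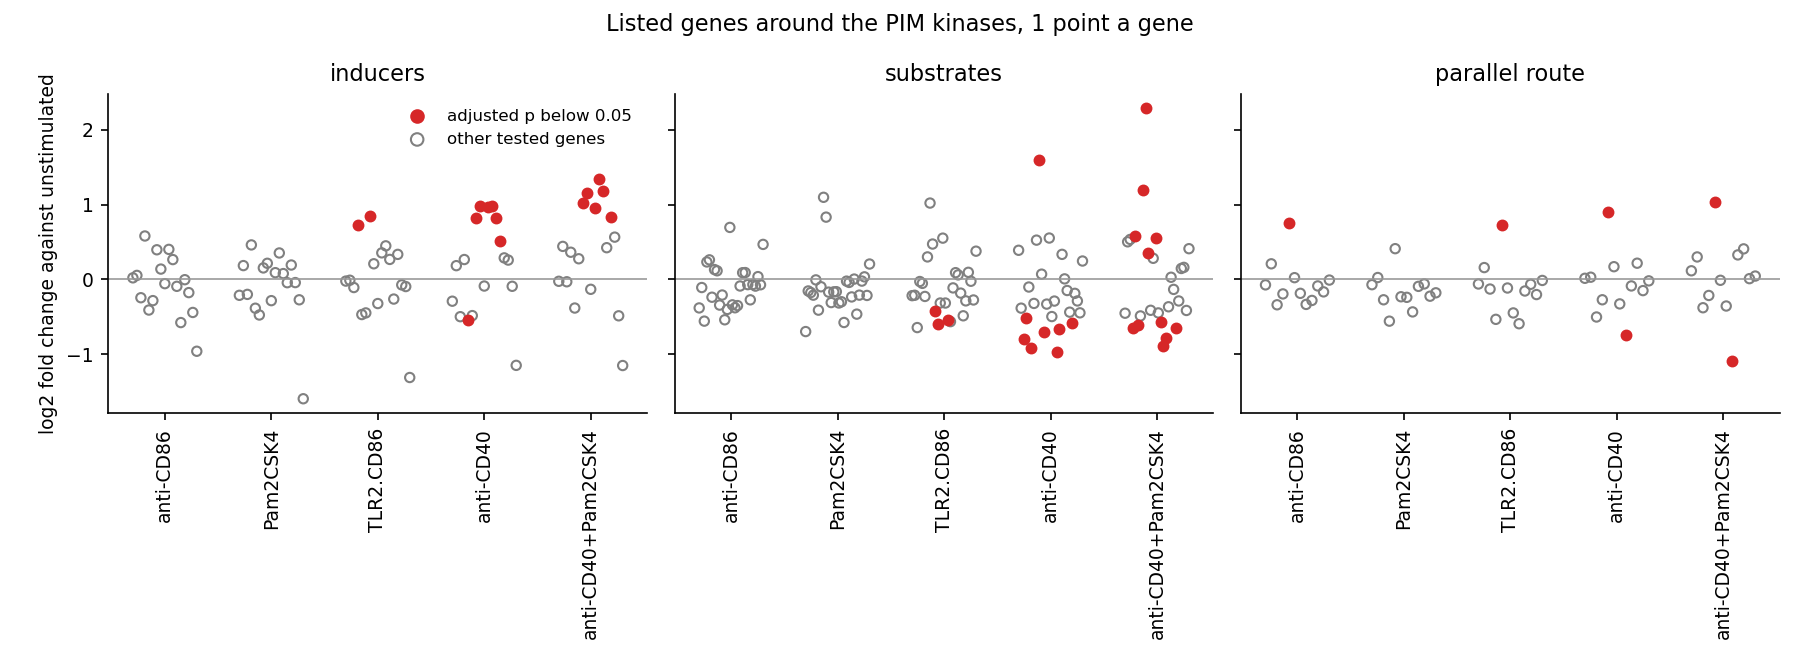
Log2 fold change against unstimulated cells (vertical axis) of the listed genes in the 5 stimulations (horizontal axis), 1 point a gene by its brightest tested probe, in the lists of inducers, substrates and the parallel route. Filled points passed at an adjusted p below 0.05 and open points did not. The highest filled point is Myc with anti-CD40 and Pam2CSK4, at 2.29.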

How the data were processed

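Cy3-labelled RNA of 12 samples was hybridised to custom Agilent mouse arrays. The authors extracted the images with Feature Extraction 10.5.1.1, and the deposited intensities are its processed signals, corrected for background within each array. They also deposited a table of log2 values, whose columns differed from log2 of the processed signal by a constant for each array. Here log2 processed intensity was taken minus the array's 75th percentile, 5 to 35 outlier spots of each array were dropped and repeat spots of a probe averaged. Between 46.6% and 60.6% of an array's spots were well above background. A probe was kept if both arrays of some condition had it well above background (31672 probes), of which 70 lacked a value and 31602 were tested with limma 3.58.1 in R 4.3.3, all 12 arrays in 1 fit, with Benjamini-Hochberg adjustment and a threshold of 0.05. The script was tested on simulated data. The brightest probe stood for a gene with several. Groups came from the labels. From each list, up to 4 genes called in the most comparisons with unstimulated cells were named, and for each PIM kinase the 5 genes most correlated with it. A gene that this rule names is not reported here. The members and lists were chosen with earlier results of these data known. Figures used matplotlib 3.10.9 in Python 3.11.15, and tables used pandas 2.3.3 and numpy 2.4.6.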

Additional observations from a re-analysis of the deposited data

How the results depend on the processing

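Over all alternatives, the 190 values of the 3 genes in the 5 comparisons with unstimulated cells stayed above 0. Calls rested on few arrays, and the cause of each change below was not tested. Values are log2 differences unless named as p.

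Under the slide block, the calls gained against unstimulated cells were Pim1 with Pam2CSK4 (1.41) and anti-CD86 (0.79), Pim2 with Pam2CSK4 (0.80) and anti-CD86 (0.78), and Pim3 with Pam2CSK4 (0.77), anti-CD86 (0.68) and TLR2.CD86 (0.91). Gained too were TLR2.CD86 against Pam2CSK4 (Pim1 0.32, Pim2 0.26) and against anti-CD86 (Pim1 0.94, Pim2 0.27), anti-CD40 with Pam2CSK4 against Pam2CSK4 (Pim3 0.41), and the interaction with anti-CD40 (Pim1 -1.55, Pim2 -0.63, Pim3 -0.77). Pim1 turned to -0.14 for Pam2CSK4 added to anti-CD40. It also turned with normexp (-0.10), quantile normalization (-0.0719) and slide 1 only (-0.21), as did Pim3 with slide 1 only (-0.0444) and Pim2 by probe c (-0.22). With the slide as a block the genes called, for Pam2CSK4, anti-CD86, TLR2.CD86, anti-CD40 and anti-CD40 with Pam2CSK4, were 6, 7, 9, 12 and 13 inducers and 5, 5, 10, 13 and 19 substrates (2, 2, 4, 3 and 9 of these higher). Of the parallel route they were 3, 4, 5 and 7 for the last 4 (2, 2, 3 and 4 higher). These counts stand against 3498, 8991, 11084, 11777 and 14997 of all 31602 probes.

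The median log2 processed signal of an array was 5.68 for anti-CD40 replicate 2 and 4.12 to 5.07 for the others. Median normalization moved the median of all tested probes against unstimulated cells to -0.58 with anti-CD40, -0.32 with TLR2.CD86, -0.27 with Pam2CSK4, -0.19 with anti-CD86 and -0.10 with anti-CD40 and Pam2CSK4. It lost TLR2.CD86 (Pim1 1.28, Pim2 0.60), anti-CD40 (Pim1 1.70, Pim2 0.77, Pim3 0.44), anti-CD40 with Pam2CSK4 (Pim2 1.56, Pim3 1.07) and the latter against Pam2CSK4 (Pim1 1.13, Pim2 1.13), turned the interaction with anti-CD40 (Pim2 0.36, Pim3 0.23) and left adjusted p of 0.482 for Pim2 and 0.831 for Pim3 over the 6 conditions. With no filter on dim probes, TLR2.CD86 (Pim1 1.56, Pim2 0.89), anti-CD40 (Pim3 1.01), anti-CD40 with Pam2CSK4 against Pam2CSK4 (Pim1 1.05, Pim2 1.04) and Pim3 over the 6 conditions (adjusted p = 0.128) were lost, as was Pim3 with the methods' one way test (adjusted p = 0.064).

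Calls gained with normexp were Pam2CSK4 (Pim1 1.25), anti-CD86 (Pim1 0.70), TLR2.CD86 (Pim3 0.73), TLR2.CD86 against anti-CD86 (Pim1 0.91) and the interaction with anti-CD40 (Pim1 -1.36). With quantile normalization they were Pam2CSK4 (Pim1 1.34), anti-CD86 (Pim1 0.74, Pim2 0.76, Pim3 0.65), TLR2.CD86 (Pim3 0.88), TLR2.CD86 against anti-CD86 (Pim1 0.95) and the interaction with anti-CD40 (Pim1 -1.41). With slide 1 only, where the conditions split over the slides hold 1 array each and the spread comes from the 2 conditions with both arrays there, they were TLR2.CD86 (Pim3 0.98) and anti-CD40 with Pam2CSK4 against Pam2CSK4 (Pim3 0.46). Pim2 probe c gained anti-CD86 (1.06) and lost anti-CD40 with Pam2CSK4 against Pam2CSK4 (0.55).

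Whether replicate numbers pair the samples could not be told from the slide in the 4 conditions split over the slides, where both are the same contrast. The numbered samples deviated together (r of 0.54 to 0.67) among these 4 conditions and otherwise at -0.11 to 0.07. Between unstimulated cells and anti-CD40 with Pam2CSK4, all on slide 1, r was 0.07. With the replicate number as a block, Pam2CSK4 (Pim1 1.24), anti-CD86 (Pim1 0.63, Pim2 0.62, Pim3 0.51), TLR2.CD86 (Pim3 0.74), anti-CD40 with Pam2CSK4 against Pam2CSK4 (Pim3 0.58) and the interaction with anti-CD40 (Pim1 -1.22) were gained.

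Leaving out 1 array at a time lost calls or turned the sign in these ranges, where a lone array is assumed to vary like the other conditions. TLR2.CD86 ran from 1.40 to 1.73 for Pim1 and 0.68 to 1.1 for Pim2. Anti-CD40 ran from 1.18 to 1.5 for Pim2 and 0.79 to 1.23 for Pim3, and with Pam2CSK4 from 1.13 to 1.24 for Pim3. Against Pam2CSK4, anti-CD40 with Pam2CSK4 ran from 0.89 to 1.20 for Pim1 and 0.88 to 1.20 for Pim2. Against anti-CD40 it ran from -0.21 to 0.26 for Pim1 and -0.0444 to 0.39 for Pim3. TLR2.CD86 for Pim3 ran from -0.10 to 0.38 against Pam2CSK4 and -0.00844 to 0.48 against anti-CD86. For Pim2 against anti-CD86, TLR2.CD86 ran from 0.061 to 0.48, where the sign held and there was no call to lose.

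The number of probes called ran over the alternatives from 0 to 3498 for Pam2CSK4 (46 as reported), 0 to 8991 for anti-CD86 (686), 26 to 11084 for TLR2.CD86 (3410), 348 to 11777 for anti-CD40 (5323) and 464 to 14997 for anti-CD40 with Pam2CSK4 (5763). It ran from 0 to 3462 for TLR2.CD86 against Pam2CSK4 (20), 1 to 2446 against anti-CD86 (71), 241 to 9950 for anti-CD40 with Pam2CSK4 against Pam2CSK4 (3150), 291 to 4804 against anti-CD40 (918), 0 to 74 for the interaction with anti-CD86 (6) and 19 to 2711 for that with anti-CD40 (365).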
